A study of Mus with 5 samples.

Results

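RNA-seq values of mouse hearts at E14.5 were read for 10 genes linked to the formation of valve mesenchyme. A single stage does not follow that formation over time. The genes were *Twist1*, *Snai1*, *Snai2*, *Sox9*, *Zeb1*, *Zeb2*, *Msx1*, *Msx2*, *Cdh2* and *Cdh11*. They were taken by their Ensembl identifiers, and all 10 were among the 12857 genes with deposited values. The samples were 3 pools of Nkx2.5Cre/+;Bmp2tg/+ (transgenic) hearts and 2 pools of wild type (WT) hearts, each pool being RNA from the ventricles and valves of 4 embryos at E14.5, with the atria removed. In the transgenic embryos the Nkx2.5Cre driver, active in the developing myocardium, deletes a floxed cassette and so lets the CAG promoter of a construct targeted to *Rosa26* express mouse *Bmp2* cDNA together with eGFP. The line came from a single targeted ES cell clone, and the labels name the Nkx2.5Cre allele for the transgenic pools only. Whether the WT pools carried it is not stated; the study describes crosses of Bmp2tg/+ males with females homozygous for Nkx2.5Cre, whose offspring would all carry it. If the WT pools did not, the effects of that allele and of Bmp2 cannot be told apart. The authors left out 1 further WT sample, which did not cluster with the others, and it is not analysed here.

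Endocardial cushions form when Bmp2 and other signals from the atrioventricular myocardium induce the overlying endocardial cells to lose their junctions and migrate into the cardiac jelly, an epithelial-mesenchyme transition (EMT). Twist1, Snai1 (Snail), Snai2 (Slug), Zeb1 and Zeb2 are transcription factors that repress junction genes in this transition, Sox9 sustains the mesenchyme that results, and Msx1 and Msx2 are homeobox factors that respond to Bmp signals in the cushions. Cadherins are the adhesion molecules whose exchange accompanies the transition. Cdh2 (N-cadherin) also joins cardiomyocytes at their intercalated discs, Cdh11 is carried by mesenchymal cells, and Cdh5 (VE-cadherin) holds endothelial cells together.

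Values are CPM (read counts scaled to a common library size), as scaled by the authors. The pools held 7427905 to 10564780 recovered reads. Genotypes were compared as log2(CPM + 0.5) with limma over all 12857 genes, and a gene was called at a Benjamini-Hochberg adjusted p of at most 0.05. The added 0.5 makes the log2 fold change of genes with few reads smaller than it is in CPM. The labels name the pools but no litters or days, so the p-values measure the spread between these pools. As a check of the labels, *Bmp2* gave 23.0, 27.1 and 23.3 CPM in transgenic pools 1, 2 and 3 against 14.1 and 10.2 CPM in WT pools 1 and 2, which is a log2 fold change of 0.99 (limma adjusted p = 0.000712). This count does not separate transgene cDNA from endogenous *Bmp2*. Every pair of pools differed by more than read sampling (chi-square per gene of 2.24 to 8.07, where sampling alone gives about 1), so no pool was taken for a repeat of another.

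None of the 10 genes was called. With limma, 0 of 10 had an adjusted p of at most 0.05, against 2.82% of all genes (1.22% higher and 1.59% lower in transgenic hearts), while 3 of 10 (*Twist1*, *Cdh2* and *Cdh11*) had an unadjusted p under 0.05, against 17.7% of all genes. On the recovered reads, edgeR's exact test called 0 of the 10 beside 3.77% of all genes, and edgeR's quasi-likelihood test 0 beside 3.1%. DESeq2 called 0 of the 4 to which it gave an adjusted p, beside 3.64% of such genes. Each of these, run on the same reads, gave 3 of the 10 an unadjusted p under 0.05, for which the share of all genes was not counted. The mean was higher in transgenic hearts for 7 genes and lower for 3. The median log2 fold change of the 10 was 0.15, beside 0.00452 for all genes. For 7 of the 10 genes the transgenic pools lay all on one side of both WT pools, 4 above and 3 below, which held for 35.7% of all genes, 17.7% above and 18% below. These shares are given side by side and were not tested. Fewer cells of a type and less RNA per cell cannot be told apart in these values from whole tissue. By quantitative PCR of E14.5 hearts the study reports EMT markers as raised. By in situ hybridisation and immunostaining it places them in the enlarged valves only. Those measures were not compared with the values here.

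**Figure D1:**
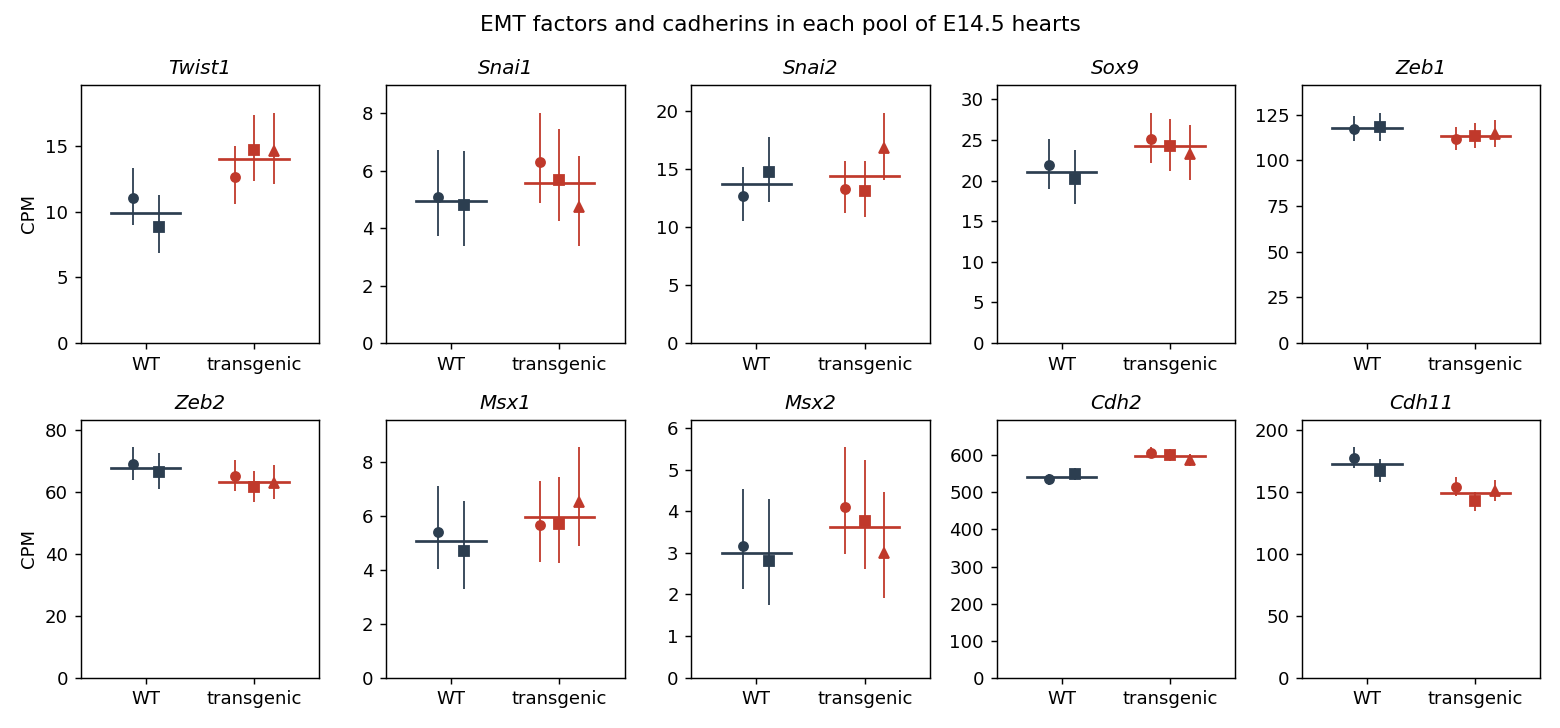
CPM of the 10 genes in each pool, WT in dark blue and transgenic in red, with circles, squares and triangles for pools 1, 2 and 3, horizontal lines at group means, and vertical bars for exact 95% Poisson intervals of the reads (counting error only). *Twist1*, *Sox9*, *Msx1* and *Cdh2* have every transgenic pool above both WT pools, *Zeb1*, *Zeb2* and *Cdh11* have every transgenic pool below, and *Snai1*, *Snai2* and *Msx2* overlap.

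*Twist1* (ENSMUSG00000035799, chromosome 12 of GRCm38, 33957671 to 33959831), the basic helix-loop-helix factor of cushion mesenchyme, had the largest log2 fold change of the 10 genes. Transgenic pools 1, 2 and 3 gave 12.6, 14.7 and 14.6 CPM, from 132, 137 and 117 reads, and WT pools 1 and 2 gave 10.995 and 8.85 CPM, from 104 and 66 reads. All transgenic pools were above both WT pools, and transgenic pool 1 was the closest to WT. The transgenic mean of 14.0 ± 1.18 CPM (SD, n = 3 pools) stood against a WT mean of 9.92 ± 1.52 CPM (SD, n = 2 pools). The log2 fold change was 0.48 with a 95% interval of 0.18 to 0.78 (standard error 0.14, limma adjusted p = 0.0752). This corresponds to 1.39-fold, with an interval of 1.14 to 1.71. Without WT pool 2, which had the lowest value, the log2 fold change was 0.33, and without WT pool 1 it was 0.63. *Twist1* passed the threshold in 1 of the 18 other settings that gave it an adjusted p, the exact test of edgeR when all genes shared 1 dispersion (adjusted p = 0.0434, beside 4.23% of all genes called), and its adjusted p in the 18 ran from 0.0434 to 0.452.

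The Snail family genes overlapped between genotypes. *Snai1* (ENSMUSG00000042821, chromosome 2, 167538195 to 167542814), a zinc finger repressor of cadherin genes, gave 6.31, 5.69 and 4.75 CPM in the transgenic hearts and 5.07 and 4.83 CPM in WT. Transgenic pool 3 was the lowest of the 5 and pool 1 the highest. The values rest on 66, 53 and 38 reads against 48 and 36 reads. The counting interval of transgenic pool 1 alone ran from 4.88 to 8.03 CPM, which takes in WT pool 1 and ends just above WT pool 2. With means of 5.58 ± 0.785 CPM (SD, n = 3) and 4.95 ± 0.176 CPM (SD, n = 2), its log2 fold change was 0.15, interval -0.25 to 0.55 (limma adjusted p = 0.729). *Snai2* (ENSMUSG00000022676, chromosome 16, 14705852 to 14709395), its close relative, gave 13.3, 13.1 and 16.8 CPM in the transgenic hearts and 12.7 and 14.7 CPM in WT, from 110 to 139 reads. The high value was that of transgenic pool 3, the pool in which *Snai1* was lowest, and WT pool 2 exceeded both other transgenic pools. With means of 14.4 ± 2.06 CPM (SD, n = 3) and 13.7 ± 1.45 CPM (SD, n = 2), its log2 fold change was 0.06, interval -0.23 to 0.35 (limma adjusted p = 0.864), and it turned to -0.050 without transgenic pool 3 and to -0.04 without WT pool 1. As folds, the intervals ran from 0.840 to 1.47 for *Snai1* and from 0.853 to 1.28 for *Snai2*.

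*Sox9* (ENSMUSG00000000567, chromosome 11, 112782210 to 112787757), an HMG box factor of cushion mesenchyme and cartilage, gave 25.2, 24.3 and 23.3 CPM in transgenic pools 1, 2 and 3, from 263, 226 and 186 reads. WT pools 1 and 2 gave 21.9 and 20.2 CPM, from 207 and 151 reads. No WT pool reached the lowest transgenic value, although the counting interval of WT pool 1, 19.0 to 25.1 CPM, takes in transgenic pools 2 and 3. With means of 24.2 ± 0.946 CPM (SD, n = 3) and 21.1 ± 1.16 CPM (SD, n = 2), its log2 fold change was 0.20 with an interval of -0.01 to 0.41 (standard error 0.10, limma adjusted p = 0.306), which did not pass the threshold. Leaving out any single pool gave values from 0.14 to 0.25.

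*Zeb1* and *Zeb2*, which encode zinc finger homeodomain repressors, had lower means in transgenic hearts, and neither was called. *Zeb1* (ENSMUSG00000024238, chromosome 18, 5591327 to 5775468) gave 112, 113 and 115 CPM in the transgenic hearts and 117 and 118 CPM in WT, from 881 to 1168 reads. *Zeb2* (ENSMUSG00000026872, chromosome 2, 44983512 to 45117442) gave 65.2, 61.6 and 63.0 CPM in the transgenic hearts and 68.9 and 66.6 CPM in WT, from 497 to 682 reads. Both genes had all transgenic pools below both WT pools. The log2 fold changes were -0.06 for *Zeb1* (interval -0.18 to 0.07, limma adjusted p = 0.661) and -0.10 for *Zeb2* (interval -0.24 to 0.04, limma adjusted p = 0.467). These are the narrowest intervals among the 8 transcription factors, and as folds they ended at 1.05 for *Zeb1* and 1.03 for *Zeb2*. Leaving out any single pool gave -0.064 to -0.045 for *Zeb1* and -0.12 to -0.07 for *Zeb2*. RefSeq has *Zeb2os* and *Mir5129* overlapping *Zeb2*, and *Gm10125* overlapping *Zeb1*, and whether the counting used strand is not given in the sources used here.

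*Msx2* had the fewest reads of the 10 genes, and *Msx1* nearly as few as *Snai1*. *Msx1* (ENSMUSG00000048450, chromosome 5, 37820491 to 37824585) gave 5.64, 5.69 and 6.50 CPM in the transgenic hearts and 5.39 and 4.69 CPM in WT, from 59, 53 and 52 reads against 51 and 35. The transgenic pools were all higher, transgenic pool 1 by less than the counting error of either value. *Msx2* (ENSMUSG00000021469, chromosome 13, 53466881 to 53472780) gave 4.11, 3.76 and 3.0 CPM in the transgenic hearts and 3.17 and 2.81 CPM in WT, from 43, 35 and 24 reads against 30 and 21. Transgenic pool 3 lay between the WT pools. The *Msx1* means were 5.95 ± 0.484 CPM (SD, n = 3) in transgenic and 5.04 ± 0.495 CPM (SD, n = 2) in WT hearts, and those of *Msx2* 3.62 ± 0.567 and 2.99 ± 0.252 CPM. The log2 fold changes were 0.22 for *Msx1* (interval -0.17 to 0.60, limma adjusted p = 0.567) and 0.23 for *Msx2* (interval -0.25 to 0.72, limma adjusted p = 0.641). In RefSeq *Msx1os* overlaps *Msx1* and *Gm33763* overlaps *Msx2*, and any part of these partners in the counts was not tested. Leaving out any single pool gave 0.13 to 0.31 for *Msx1* and 0.15 to 0.35 for *Msx2* on the log2 scale.

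The cadherins lay in opposite directions. *Cdh2* (ENSMUSG00000024304, chromosome 18, 16588877 to 16809246) gave 607, 601 and 587 CPM in the transgenic hearts and 535 and 550 CPM in WT, from 4100 to 6343 reads. The transgenic pools were all higher. With means of 598 ± 10.3 CPM (SD, n = 3) and 543 ± 9.95 CPM (SD, n = 2), its log2 fold change was 0.14 with an interval of 0.03 to 0.25 (standard error 0.05, limma adjusted p = 0.175). *Cdh11* (ENSMUSG00000031673, chromosome 8, 102632095 to 102785493) gave 154, 142 and 151 CPM in the transgenic hearts and 177 and 167 CPM in WT, from 1206 to 1676 reads. Its lowest value was that of transgenic pool 2, and no transgenic pool reached either WT pool. With means of 149 ± 6.10 CPM (SD, n = 3) and 172 ± 7.10 CPM (SD, n = 2), its log2 fold change was -0.21 with an interval of -0.33 to -0.08 (standard error 0.06, limma adjusted p = 0.0709). Both differences exceeded the SD between pools and neither passed the threshold. In 19 other settings *Cdh11* was called in 0, its adjusted p ranging between 0.0525 and 0.420, and *Cdh2* was called in 0, its adjusted p ranging between 0.134 and 0.523.

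**Figure D2:**
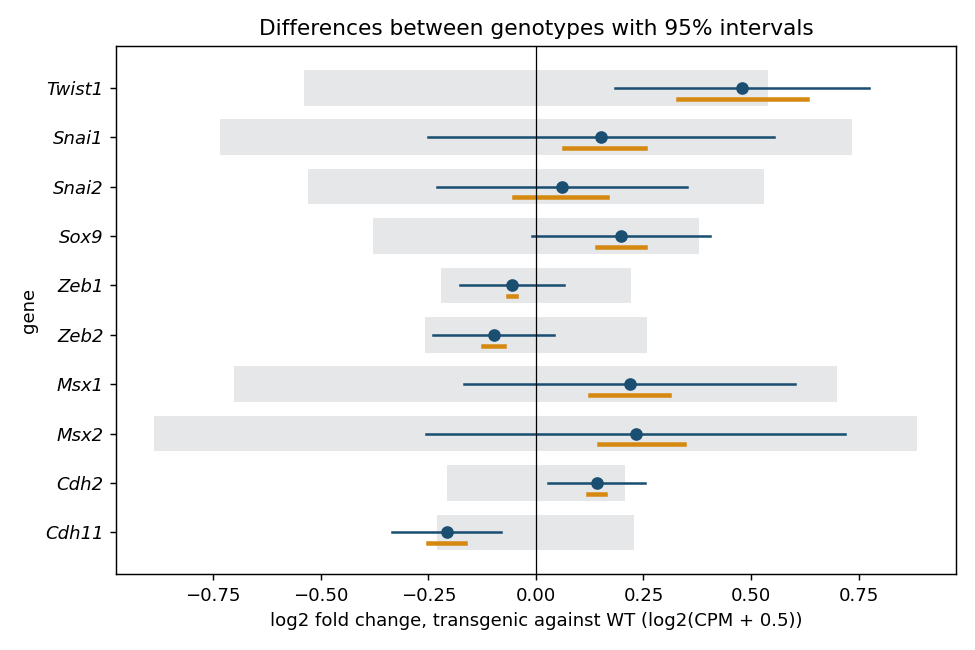
Log2 fold change of each gene, transgenic against WT, as points with 95% limma intervals (blue lines), the range with each pool left out in turn (orange bars), and in grey the span of log2 fold changes too small to be called given the gene's standard error. All 10 points lie within the grey, those of *Twist1* and *Cdh11* closest to its edge, and the intervals of *Twist1*, *Cdh2* and *Cdh11* do not include 0.

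The smallest difference that could be called was largest for *Msx2*, which had the fewest reads, and smallest for *Cdh2*, which had the most. The largest unadjusted limma p among called genes was 0.0014, and with each gene's own standard error this p would need a log2 fold change of 0.54 for *Twist1*, 0.73 for *Snai1*, 0.53 for *Snai2*, 0.38 for *Sox9*, 0.70 for *Msx1* and 0.89 for *Msx2*. For *Zeb1*, *Zeb2*, *Cdh2* and *Cdh11* it would need 0.22, 0.26, 0.21 and 0.23. As folds, an estimated rise below 1.66 in *Snai1*, 1.63 in *Msx1* or 1.85 in *Msx2* fell short of a call, whereas an estimate of 1.17 sufficed for *Zeb1* and 1.15 for *Cdh2*. These limits hold for the estimates with these standard errors, not for the true rise. *Twist1*, at 0.48 of the 0.54 needed, and *Cdh11*, at -0.21 with a size of 0.23 needed, came closest. Counting error alone, taken on the same log2(CPM + 0.5) scale, was close to the limma standard error for genes with few reads, at 0.18 beside 0.19 for *Snai1* and 0.22 beside 0.23 for *Msx2*. For *Twist1* it was 0.13 beside 0.14. For the cadherins it was a smaller part, 0.019 beside 0.053 for *Cdh2* and 0.035 beside 0.059 for *Cdh11*.

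**Figure D3:**
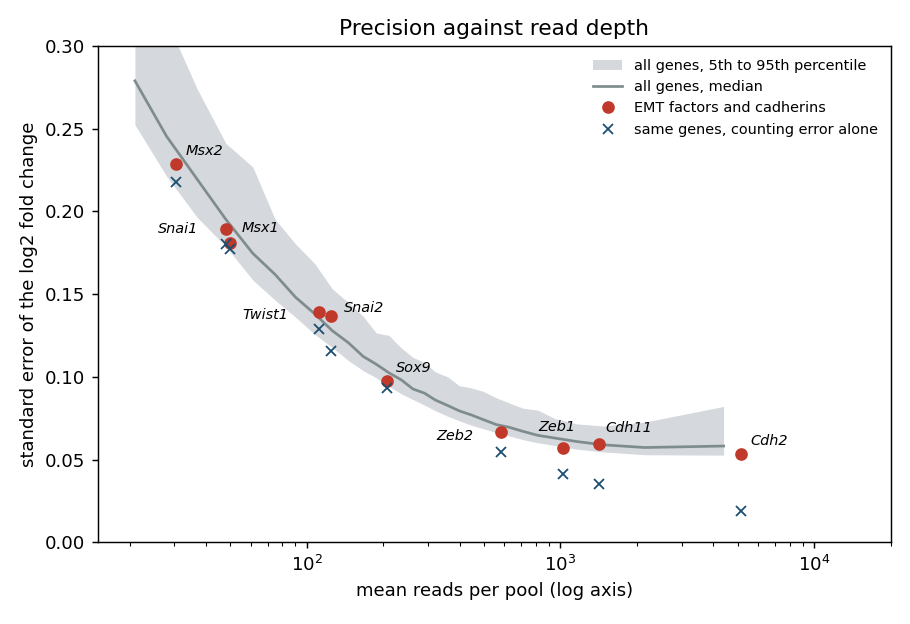
Standard error of the log2 fold change against mean reads per pool (log axis), with the 10 genes as red points, the error that counting alone gives them as blue crosses, and the median and the 5th to 95th percentile of all genes in 30 bins of reads as a grey line and band. The 10 genes follow the curve of all genes, from *Msx2* at 0.23 to *Cdh2* at 0.05.

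Ratios of related genes within a pool depend little on how the pools were scaled. The ratio of *Cdh2* to *Cdh11* in CPM was 3.94, 4.23 and 3.89 in transgenic pools 1, 2 and 3 and 3.02 and 3.29 in WT pools 1 and 2. All transgenic pools were above both WT pools. On the log2 scale the means were 2.0 ± 0.06 (SD, n = 3) and 1.65 ± 0.09 (SD, n = 2), a difference of 0.35 with an exact two-sided permutation p of 0.2, the smallest that 3 pools against 2 can give. The log2 ratio of *Zeb1* to *Zeb2* differed by 0.04 between genotypes, that of *Msx1* to *Msx2* by -0.01, and that of *Snai1* to *Snai2* by 0.09, with overlapping pools in each (exact permutation p of 0.4, 1.0 and 0.8). The *Snai1* to *Snai2* ratio ranged from 0.284 in transgenic pool 3 to 0.475 in transgenic pool 1, so the spread within the transgenic group was wider than the difference between genotypes. None of the 5 ratio tests could reach 0.05, since 3 pools against 2 give no permutation p below 0.2. These ratios describe how a pair moved between pools, not which of the pair has more transcripts, since the values are not corrected for transcript length.

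*Cdh5*, which Snail factors repress in cushion endocardium, was compared with *Cdh11* in the same way. It gave 239, 204 and 236 CPM in the transgenic hearts and 275 and 263 CPM in WT, with a log2 fold change of -0.25 (limma adjusted p = 0.0563). No transgenic pool reached the lower WT value, and *Cdh5* was past the threshold in 10 of 19 other settings, its adjusted p ranging between 0.00978 and 0.372. The ratio of *Cdh11* to *Cdh5* was 0.644, 0.697 and 0.639 in transgenic hearts, overlapping the 0.644 and 0.635 of WT (log2 difference 0.05, exact permutation p = 0.6). The difference in this ratio was smaller than the pooled SD between pools, 0.06.

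**Figure D4:**
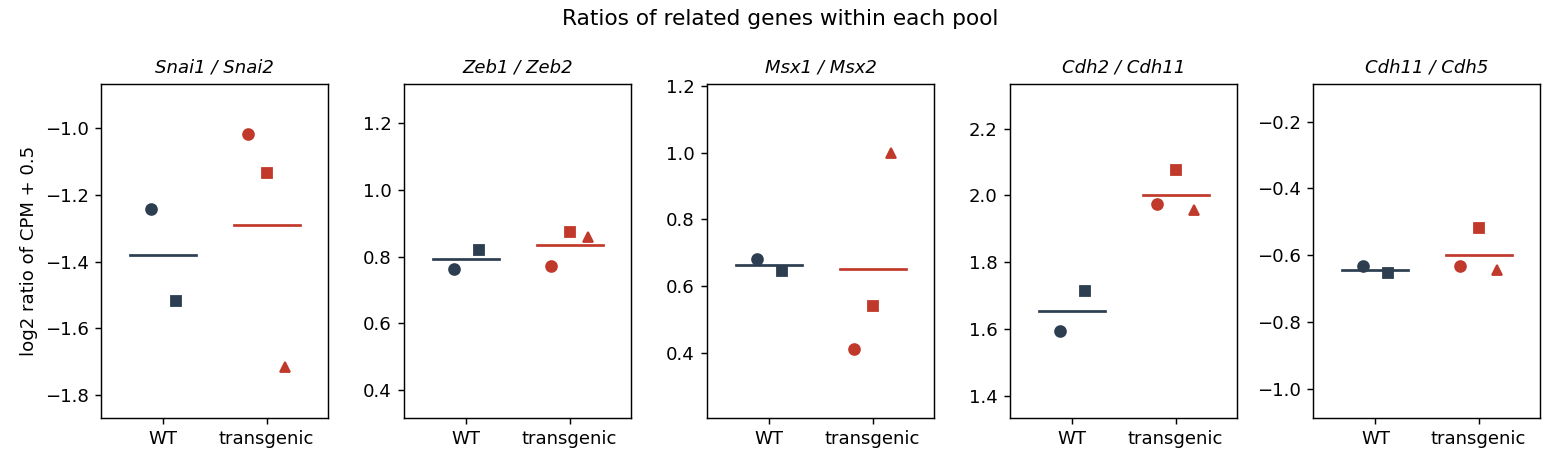
Log2 ratio of CPM + 0.5 of 5 gene pairs within each pool, WT in dark blue and transgenic in red, with circles, squares and triangles for pools 1, 2 and 3 and lines at group means; each panel spans 1 log2 unit. Genotypes are separated for *Cdh2* over *Cdh11*, at 1.96 to 2.08 against 1.59 and 1.71, and overlap for the other pairs.

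The wider pathway was read through 64 symbols of Bmp targets, cushion EMT signals, cushion matrix and other cadherins. Names are paired with identifiers only in the study's own list of 406 changed genes, which held 26 of the 64. These 26 were picked by the authors as changed in the same pools, so their counts are not independent evidence and say nothing of the unmatched symbols. Of all 406 listed genes, 293 (72.2%) were called here, 112 higher and 181 lower in transgenic hearts, beside 2.82% of all genes. Of 11 Bmp targets and feedback genes matched, 9 rose in transgenic hearts and 0 fell, with the largest log2 fold changes in *Smad9* (1.31), *Id2* (0.96), *Smad6* (0.75) and *Tbx3* (0.69), the last encoding a repressor of chamber genes. Of 5 matched EMT signalling genes, *Hey2* rose (0.24) and *Tgfbr3*, the Tgfβ co-receptor (-0.39), and *Notch1* (-0.35), which acts in cushion endocardium, fell (limma adjusted p of 0.0267, 0.00494 and 0.0104). Of 8 matched genes of cushion matrix and mesenchyme, 5 fell and 0 rose, among them *Col6a3* (-0.42) and *Col6a2* (-0.33), which encode collagen VI chains, *Eln* (-0.38), which encodes elastin, and *Pdgfra* (-0.34), a receptor of mesenchymal cells. Of 2 other cadherins matched, *Cdh20* rose by 1.07 on the log2 scale, with 15.4 ± 1.65 CPM (SD, n = 3) in transgenic and 7.05 ± 0.494 CPM (SD, n = 2) in WT hearts (limma adjusted p = 0.000643), and *Cdh5* was not called. Of the 26, 18 were called with all 5 pools, 5 without WT pool 1 and 5 without WT pool 2, and limma without its variance trend called 0.

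Cell type markers other than *Sox9* could be named only through the same list of genes that the authors found changed in these pools. A difference in those matched markers was fixed by that choice, and their sums are given as a description. Of 9 endocardial and endothelial markers 4 were matched (*Cdh5*, *Kdr*, *Tie1* and *Plvap*), and their summed CPM was 462 to 548 in transgenic pools and 659 and 668 in WT pools. Transgenic pool 2 had both the lowest endothelial sum and the lowest *Cdh11*. Transgenic pools 1 and 3 had sums of 545 and 548 CPM and *Cdh11* values of 154 and 151 CPM. The counting intervals of these *Cdh11* values overlapped, at 147 to 162 and 142 to 160 CPM. Of 5 smooth muscle and pericyte markers 3 were matched (*Myh11*, *Pdgfrb* and *Rgs5*), at a sum of 138 to 157 CPM in transgenic and 185 and 188 CPM in WT pools. Among cardiomyocyte markers, *Myl7* rose by 0.90 and *Ryr2* fell by 0.28 on the log2 scale. The epicardial marker *Tbx18*, 1 matched of 4, rose by 0.37. Of 6 valve mesenchyme markers, *Sox9* and *Pdgfra* were matched. *Sox9* belongs to the main gene set read above and was named through that set, so it is no separate marker. As given above, *Pdgfra* was called lower, whereas *Sox9*, with a higher mean, was not called. No symbol of the neural crest, red cell or leukocyte lists was matched. The part of such shifts in the cadherin values was not tested.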

How the data were processed

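RNA of E14.5 ventricles and valves was measured in 3 transgenic and 2 WT pools, grouped by their titles. The authors removed adaptors with cutadapt, quantified reads with RSEM over GRCm38 and Ensembl genes, left out 1 WT sample and deposited CPM relative to a scaled library size. The labels give RSEM 1.2.19, Bowtie 0.12.9 and edgeR 3.0.8. In each pool 100% of values were whole multiples (within 0.01) of 1 read, which gave back the reads. In all, 0 value columns were left unused.

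log2(CPM + 0.5) was compared with limma 3.58.1 in R 4.3.3 (variance trend, no covariate). The filter of 1 CPM in at least 2 pools removed 0 genes. edgeR 4.0.16 and DESeq2 1.42.0 on the recovered reads, other pseudocounts (0.1 and 1), filters and scalings, a block for the pool number, and fits with each pool left out in turn were alternatives. Scripts were tested on simulated data. Intervals from reads cover counting error only. Names of the wider genes come from the authors' list of 406 changed genes, whose fold changes and p-values were not used. Positions are those of RefSeq GRCm38.p6, matched by symbol for all 10 genes. The named genes are the 10, *Bmp2*, *Cdh5* and, per wider list, up to 4 called genes with the largest change. The genes and lists were chosen with earlier results of these data known. Sequences of these genes were not used here. Part of the cardiomyocyte marker list is not reported here.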

Additional observations from a re-analysis of the deposited data

How the results depend on the processing

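None of the 10 genes was called in 18 of 19 other settings. The exception was the exact test of edgeR when all genes shared 1 dispersion, which called 1 gene, *Twist1* (this form and those with trended dispersions and TMM factors were chosen after seeing the data). Of 183 fold changes under these settings, 179 kept their direction and their side of the threshold, and *Snai2* reversed in 3, at -0.050 with the pool number as a block, -0.04 without WT pool 1 and -0.050 without transgenic pool 3, within a range of -0.050 to 0.17 with each pool left out. Some settings repeated others, so these counts overstate the number of separate answers. Dropping the filter repeated the main fit, since the filter removed 0 genes. TMM factors left the fold changes of the exact test almost unchanged. The block gave the same fold changes as leaving out transgenic pool 3, so those reversals are the same. DESeq2 gave no adjusted p to 6 of the 10 genes, and a mean of at least 5 CPM left out 1, *Msx2*. Of the 26 wider genes, 18 were called, 0 in limma without the variance trend, and 5 to 23 with each pool left out. With 1 WT pool left, that pool was assumed to vary like the others. Such fits, and limma without the variance trend, called few or none of the wider genes. The absence of calls among the 10 genes there therefore carries little weight. For most settings the share of all genes called is not given here. Pools share only a number: the correlations of deviations were -0.026 and -0.050 for the 2 pairs of the same number, and transgenic pool 3 has no partner. With the number as a block, 655 rather than 362 of all genes were called, 0 of the 10 genes and 24 of the 26 wider genes. The log2 ratios of the 5 gene pairs moved by less than 1 pooled SD with each pool left out, other pseudocounts and quantile normalization, although the *Snai1* to *Snai2* and *Msx1* to *Msx2* differences, both near 0, changed sign in some of these.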
